A study of Homo sapiens with 10 samples.

Results

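The genes described here run glucose breakdown or belong to the transcriptional response to low oxygen. They were taken as 38 listed symbols, 24 for glucose transporters, glycolytic enzymes and their regulators and 14 for other hypoxia response genes. Of these, 36 had a probe set in the platform annotation, 23 in the first group and 13 in the second, out of 19775 genes with a probe set. Where a gene had several probe sets, the one whose log2 signal averaged highest over the 10 arrays was used. All 36 lay above the filter on dim genes and are among the 12514 genes tested. The lactate exporter SLC16A3 and the carbonic anhydrase CA9 were not analysed here.

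Glycolysis splits glucose into pyruvate, which lactate dehydrogenase turns into lactate or mitochondria oxidise. In low oxygen the transcription factor HIF, a dimer of an oxygen-regulated alpha subunit and ARNT, binds a short core motif near its target genes. Many glycolytic enzymes are such targets, as are genes for blood vessel growth, acid-base balance and mitochondrial turnover. Cancer cells, lung carcinoma cells included, often run glycolysis at a high rate even with oxygen present.

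Both cell lines are established and come from human non-small cell lung carcinoma, A549 with a mutant k-Ras and H1650 with a mutant EGFR. Each line gave 5 arrays. One received control siRNA and no stimulus, and the other 4 received control or ID1 siRNA with either 1 µM nicotine or 100 ng/ml EGF. ID1 encodes a helix-loop-helix protein that blocks DNA binding by its partners. All cells were starved of serum for 48 h, and the stimulated ones were then exposed for 18 h. The labels name no change in oxygen, and they give Ham's F-12K and RPMI-1640 as media without assigning them. If each line had its own medium, line and medium cannot be told apart. Each group is 1 array, and nothing in the labels ties arrays to separate cultures, so errors are standard errors of the fits. The p-values measure the spread that the fits leave between these arrays, moderated by the spread of other genes. In bulk RNA, fewer expressing cells and less RNA per cell cannot be told apart.

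ID1 itself was low in every library treated with its siRNA. In H1650 its signal was 881 and 1031 there and 4964 to 5121 with control siRNA. In A549 it was 1343 in both ID1 siRNA libraries, 3720 and 3049 in the control libraries with nicotine and EGF, and 1645 in the unstimulated control. The unstimulated A549 control thus lay nearer to the ID1 siRNA libraries, and several genes below show the same order. A second A549 library, control siRNA with EGF, stood apart in its brightest signals. Its ACTB control probe set read 41474, against 24687 to 30188 on the other A549 arrays. The 3′/5′ signal ratio was 0.887 to 0.945 for GAPDH and 1.23 to 1.52 for ACTB over the 10 arrays. The 5 epithelial markers looked up (KRT8, KRT18, KRT19, EPCAM and CDH1) were above the filter. Of 10 markers of endothelial, blood and fibroblast cells, PECAM1 and DCN were above it, at signals of at most 267 and 130.

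The promoters of 5 genes whose signal changed with ID1 siRNA in at least 1 line are shown here, as examples that hold the core motif of HIF. GPI, LDHA, PDK3 and PFKFB3, which fell in A549 with ID1 siRNA, hold it too and are not shown. PFKP, TPI1 and PKM, which fell in A549, and PFKM, which fell in H1650, have no match. HK2, PFKFB4 and ADM rose in A549, BNIP3 fell in both lines, and ERO1A fell in H1650. Each stretch is the 250 bases before the first listed RefSeq start on GRCh38.p14, read along the gene. Capitals mark ACGTG or GCGTG on either strand, so that the other strand reads as CACGT or CACGC, and CACGTG is 2 overlapping matches. HK2 is at chr2:74833877-74834126 on the plus strand, PFKFB4 at chr3:48556804-48557053 on the minus strand, and ADM at chr11:10304823-10305072 on the plus strand. BNIP3 is at chr10:131981924-131982173 and ERO1A at chr14:52695559-52695808, both on the minus strand.
HK2: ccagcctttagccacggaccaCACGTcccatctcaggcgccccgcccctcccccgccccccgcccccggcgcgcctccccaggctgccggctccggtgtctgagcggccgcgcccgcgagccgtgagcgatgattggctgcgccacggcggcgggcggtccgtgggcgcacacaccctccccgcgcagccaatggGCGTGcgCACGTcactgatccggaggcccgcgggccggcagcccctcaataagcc
PFKFB4: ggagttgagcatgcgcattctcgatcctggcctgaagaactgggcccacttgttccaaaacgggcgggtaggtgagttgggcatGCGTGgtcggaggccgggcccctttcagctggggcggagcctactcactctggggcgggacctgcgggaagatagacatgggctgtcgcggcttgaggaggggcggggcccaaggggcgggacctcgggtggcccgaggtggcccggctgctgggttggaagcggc
ADM: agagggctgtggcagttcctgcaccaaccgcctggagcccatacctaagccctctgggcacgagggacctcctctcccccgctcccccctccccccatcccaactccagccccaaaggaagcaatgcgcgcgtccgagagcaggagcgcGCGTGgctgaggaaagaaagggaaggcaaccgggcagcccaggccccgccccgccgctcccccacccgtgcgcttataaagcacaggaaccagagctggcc
BNIP3: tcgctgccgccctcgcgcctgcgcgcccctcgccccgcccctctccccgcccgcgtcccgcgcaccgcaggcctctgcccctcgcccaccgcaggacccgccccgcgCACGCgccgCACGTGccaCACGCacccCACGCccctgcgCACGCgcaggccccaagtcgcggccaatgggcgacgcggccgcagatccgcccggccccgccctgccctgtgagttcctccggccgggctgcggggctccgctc
ERO1A: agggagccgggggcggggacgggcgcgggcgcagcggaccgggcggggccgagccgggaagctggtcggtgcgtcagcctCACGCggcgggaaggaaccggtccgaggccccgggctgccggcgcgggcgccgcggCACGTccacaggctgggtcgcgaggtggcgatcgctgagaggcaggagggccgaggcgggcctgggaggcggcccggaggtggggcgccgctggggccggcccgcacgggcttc
The motif occurred in 22 of the 34 listed genes with a promoter in the table, or 64.7%. By group it was in 13 of 23 glycolytic genes (56.5%) and 9 of 11 other hypoxia genes (81.8%). Of 35116 promoters of the same length in the table, 43.2% held it. A match describes the letters and not binding.

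The 2 lines differed at most of these genes. Of the 23 glycolytic genes, 7 were higher in A549 and 7 higher in H1650, and of the 13 other hypoxia genes 2 were higher in A549 and 9 in H1650 (limma, Benjamini-Hochberg adjusted p under 0.05). The background is high, since 30.9% of all genes tested were higher in A549 and 32.2% lower. The glycolytic genes were thus called about as often as other genes, and 9 of 13 lower calls among the hypoxia genes stand beside that 32.2%. The median log2 difference, A549 minus H1650, was 0.26 for the glycolytic genes, -0.90 for the other hypoxia genes and -0.03 for all genes tested. The sign of the glycolytic median depended on scaling, and was -0.10 after quantile normalization. All 5 A549 arrays lay above all 5 H1650 arrays for 4 glycolytic and 2 other hypoxia genes, and below them for 6 and 8. Among all genes tested, 24.7% lay wholly above and 25.3% wholly below.

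**Figure D1:**
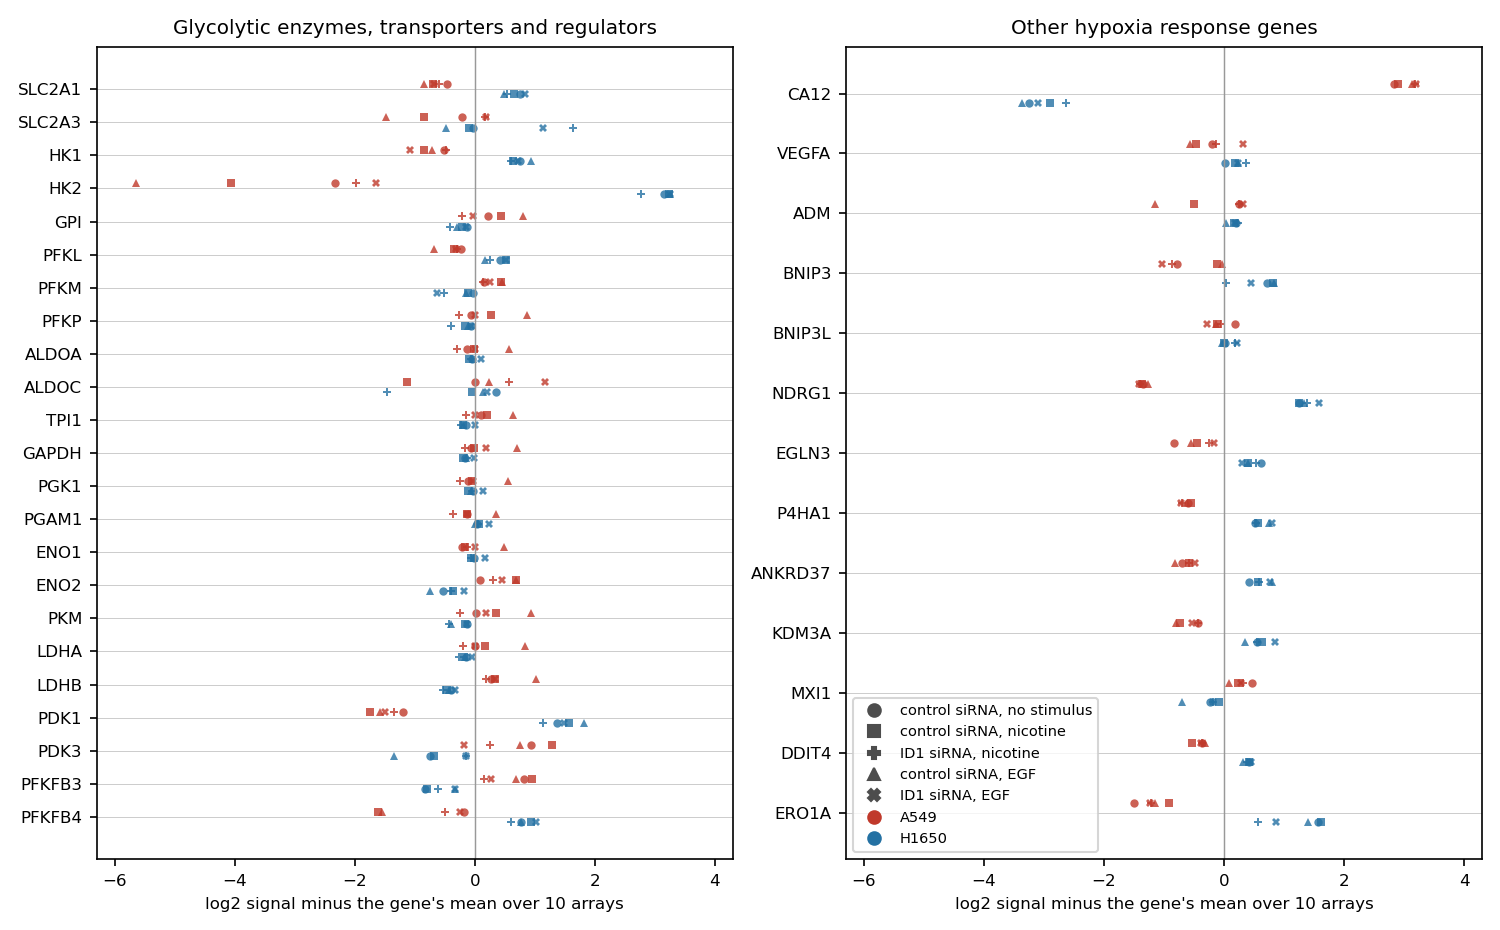
Log2 signal of the 36 genes on each of the 10 arrays, minus the gene's own mean over the arrays; A549 is red, H1650 blue, and symbols give siRNA and stimulus. HK2 and CA12 spread most between the lines, and the unstimulated A549 control lies near the A549 ID1 siRNA arrays for HK2, PFKFB4, ADM and BNIP3.

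HK1, HK2, SLC2A1 and SLC2A3, the hexokinase and glucose transporter genes among the 36, were lower in A549. HK2, the hexokinase induced in many tumours, read 124 in the unstimulated A549 control, 37.6 and 12.5 in the stimulated controls, and 158 and 199 with ID1 siRNA. The H1650 arrays read 5554, 5908, 5965, 4287 and 5981 in the same order. The lines did not overlap. Because the stimulated A549 controls fell below their array's median, the difference is given as at least 50.3-fold on this probe set (limma adjusted p = 2.01e-05). The other HK2 probe sets, also dim in those controls, gave smaller log2 differences, -1.83 and -2.78. HK1, the constitutive hexokinase, ranged from 958 to 1461 in A549 and from 3105 to 3878 in H1650, 2.75-fold lower in A549. The glucose transporter SLC2A1 was 1147 to 1494 in A549 and 2909 to 3705 in H1650, 2.48-fold lower in A549 (log2 -1.31, SE 0.09, limma adjusted p = 4.82e-06). The high-affinity transporter SLC2A3 was also lower in A549 (log2 -0.87, SE 0.16), but its ranges overlapped, 553 to 1760.3 against 1101 to 4811.

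Among the enzymes from GPI to lactate dehydrogenase, 5 were higher and 1 lower in A549. Of the phosphofructokinase subunits, the liver form PFKL was lower in A549 (log2 -0.75, SE 0.10), the muscle form PFKM higher (log2 0.57, SE 0.11), and the platelet form PFKP was not called at 0.33 (SE 0.15). PFKL read 438 to 597 in A549 and 789.8 to 1008 in H1650, and PFKM 1213 to 1503 and 714 to 1082. Neither of these pairs of ranges overlapped. The neuronal enolase ENO2 was 1.85-fold higher in A549, at 714 to 1079.5 against 402 to 590.5. The dehydrogenase subunit LDHB was 1.82-fold higher in A549, at 23850.3 to 42739.9 against 14474 to 16746. The isomerase GPI (log2 0.49, SE 0.15) and pyruvate kinase PKM (log2 0.50, SE 0.17) were called higher in A549, but their ranges overlapped and both calls were lost without the nicotine control of either line. ALDOA, ALDOC, TPI1, GAPDH, PGK1, PGAM1, ENO1 and LDHA, which carry out the steps from aldolase to lactate, were not called, with log2 differences from -0.16 for PGAM1 to 0.33 for ALDOC. Near-identical copies elsewhere in the genome may share signal with several of these probe sets, so their single-gene values are uncertain.

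Of the enzymes that set flux at the branch points, PDK1 and PFKFB4 were lower in A549 and PFKFB3 higher, with PDK3 unsettled. PDK1, a kinase that shuts off pyruvate dehydrogenase, read 363, 250.3, 280.5, 328 and 295 in A549, with the arrays in the order unstimulated control, control with nicotine, control with EGF, ID1 siRNA with nicotine and ID1 siRNA with EGF. In H1650 it read 2159.6, 2482, 2955, 1843 and 2354, so every H1650 array was higher and the fold was 7.74 (log2 -2.95, SE 0.16, limma adjusted p = 1.12e-06). Its relative PDK3 was higher in A549 on the probe set used (log2 1.22, SE 0.32), with overlapping ranges of 324 to 901 and 145 to 334. The other PDK3 probe sets gave -1.76, -0.84, 0.11 and 0.70, so this gene's direction depends on the probe set. PFKFB3 and PFKFB4 make and break down the fructose bisphosphate that activates phosphofructokinase. PFKFB3 was 2.23-fold higher in A549, at 2379 to 4142 against 1203 to 1700.0. PFKFB4 was 3.11-fold lower there, at 493 to 1340.2 against 2293 to 3063. Neither range overlapped between lines.

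**Figure D2:**
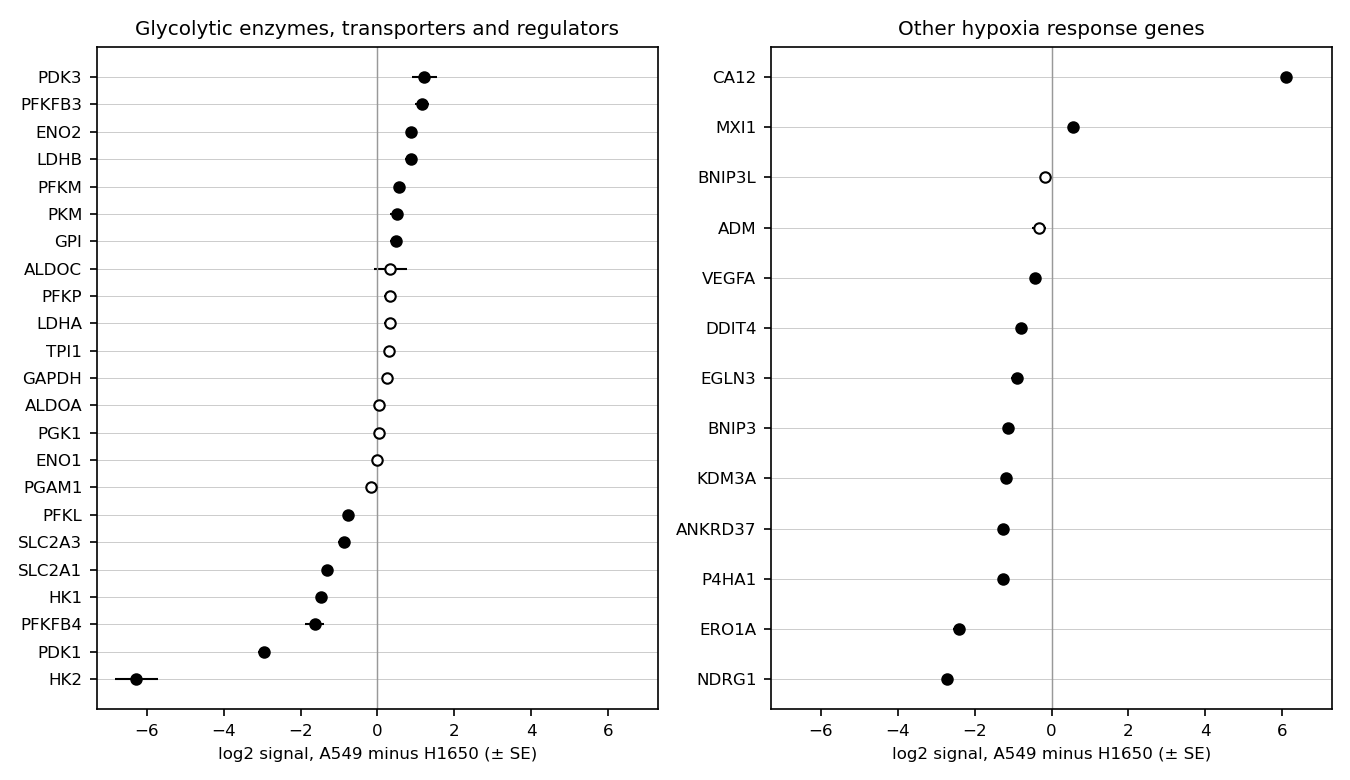
Log2 signal of A549 minus H1650 for each gene with its limma standard error, in both groups; filled points have an adjusted p under 0.05. Glycolytic genes lie on both sides of 0, and 9 of the 13 other hypoxia genes are called on the H1650 side, with CA12 far on the A549 side.

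Among the other hypoxia genes, most were higher in H1650. NDRG1, a gene induced by many stresses, read 1687, 1663, 1781, 1629 and 1609 in A549, in the order of arrays given for PDK1. H1650 gave 10261, 10169, 10769, 11243 and 12836, a 6.58-fold difference that was steady across conditions (log2 -2.72, SE 0.09). ERO1A, the oxidase that helps form disulfide bonds in the endoplasmic reticulum, ranged from 1349 to 2027 in A549 and from 5679.8 to 11705 in H1650 (5.31-fold). Its other probe sets gave smaller log2 differences, -1.47 and -0.41, and on the latter the ranges of the lines overlapped. The collagen prolyl hydroxylase subunit P4HA1, the histone demethylase KDM3A and the ankyrin repeat gene ANKRD37 were 2.41-, 2.26- and 2.39-fold lower in A549. For P4HA1 the mean with its second probe set, which is below the filter on dim genes, had the opposite sign (log2 0.30, not called). BNIP3, a receptor for removal of mitochondria, was 2.20-fold lower at 2706 to 5419 against 5673 to 9853. EGLN3, a prolyl hydroxylase that marks HIF for destruction, was 1.87-fold lower, and DDIT4, an inhibitor of mTORC1, 1.73-fold lower. For these 8 genes the lines did not overlap on the probe sets used.

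CA12, a carbonic anhydrase of the cell surface, went the other way. It read 13150.2, 13649, 16163, 16779.8 and 16928 in A549 and 192, 245, 179, 297 and 214 in H1650. The difference was 68.8-fold (log2 6.10, SE 0.12, limma adjusted p = 1.6e-08), and all its other probe sets above the filter were also higher in A549. The MYC antagonist MXI1 was the other gene higher in A549, 1.47-fold, at 1432 to 1885 against 837 to 1277. The angiogenic factor VEGFA was called slightly lower in A549 (log2 -0.42, SE 0.13), with overlapping ranges, and the call was lost when each array was centred on its median (log2 -0.26, limma adjusted p = 0.0929), and without any 1 of the 4 nicotine arrays or of the 2 EGF controls. The vasodilator peptide gene ADM (log2 -0.32, SE 0.19) and the BNIP3 relative BNIP3L (log2 -0.16, SE 0.11) were not called on the probe sets used. The other BNIP3L probe set, also above the filter, gave a log2 difference of -0.995. It read 1550 to 2206 in A549 and 3586 to 4075 in H1650, without overlap, so the size of the BNIP3L difference depends on the probe set.

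ID1 siRNA in A549 raised some glucose-handling and hypoxia genes and lowered a number of glycolytic enzymes. Of the 23 glycolytic genes, 3 rose and 7 fell against control siRNA, and of the 13 other hypoxia genes 2 rose and 1 fell. Among all genes tested 13.8% rose and 11.4% fell. The median log2 change was -0.34 for the glycolytic genes, 0.15 for the other hypoxia genes and 0.05 for all genes. The 3 risers among the glycolytic genes are close to the share for all genes, and the 7 that fell are 7 of 23. With each array centred on its median, 4 of the 36 rose and 19 fell, as that scaling moves the median of all genes from 0.05 to -0.23. Without the intensity trend 7 of the 13 calls held, and PFKFB3, PFKP, PKM, LDHA, TPI1 and VEGFA were lost.

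The 5 genes that rose were HK2, SLC2A3, PFKFB4, ADM and VEGFA. HK2 read 37.6 and 12.5 in the controls with nicotine and EGF and 158 and 199 in their ID1 siRNA partners. Both controls were dim, so the rise is given as at least 2.80-fold (limma log2 3.03, SE 0.36, adjusted p = 0.00075). Its other probe sets, also dim in the controls, gave log2 changes of 2.52 and 1.14, the latter not called (limma adjusted p = 0.0659). On the former the ID1 siRNA arrays, at 77.1 and 57.5, were below their array medians too, so no direction is drawn from it. SLC2A3 rose from 854 to 1742 with nicotine and from 553 to 1760.3 with EGF, 2.55-fold in the fit (SE 0.15 in log2, limma adjusted p = 0.000459). PFKFB4 rose from 493 to 1068 and from 514 to 1278, 2.32-fold (limma adjusted p = 0.000745).

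ADM rose from 2705 to 4573 with nicotine and from 1729 to 4781 with EGF, 2.16-fold (SE 0.15 in log2, limma adjusted p = 0.00146). VEGFA rose from 1478 to 1864 and from 1376 to 2544, 1.53-fold, and its 3 other probe sets gave log2 changes of 0.46, 0.95 and 1.06, the first and last of them not called. The VEGFA call was also lost with each array centred on its median (log2 0.32, limma adjusted p = 0.0793) and without either EGF array of A549. For HK2, SLC2A3, PFKFB4, ADM and VEGFA both ID1 siRNA libraries lay above both stimulated controls. The hybridisation spike bioB, which is added and not cellular, rose too, by log2 0.58 with nicotine and 0.74 with EGF. The spike cre changed by 0.04 and -0.27. In the H1650 pairs bioB rose by 0.38 and 0.36, and cre by 0.03 and 0.19. What part array brightness has in the rises of these genes was not tested.

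The unstimulated A549 control did not sit with the stimulated controls for these genes. It read 124 for HK2, 1340.2 for PFKFB4, 4567 for ADM and 1334 for SLC2A3. Each of these values is closer to both ID1 siRNA libraries than to both stimulated controls on the log2 scale, as was the case for ID1. For HK2, ADM and SLC2A3 the unstimulated control lay between the 2 kinds of library, and for PFKFB4 it was the highest of the 5. The part of ID1 level in this order was not tested.

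**Figure D3:**
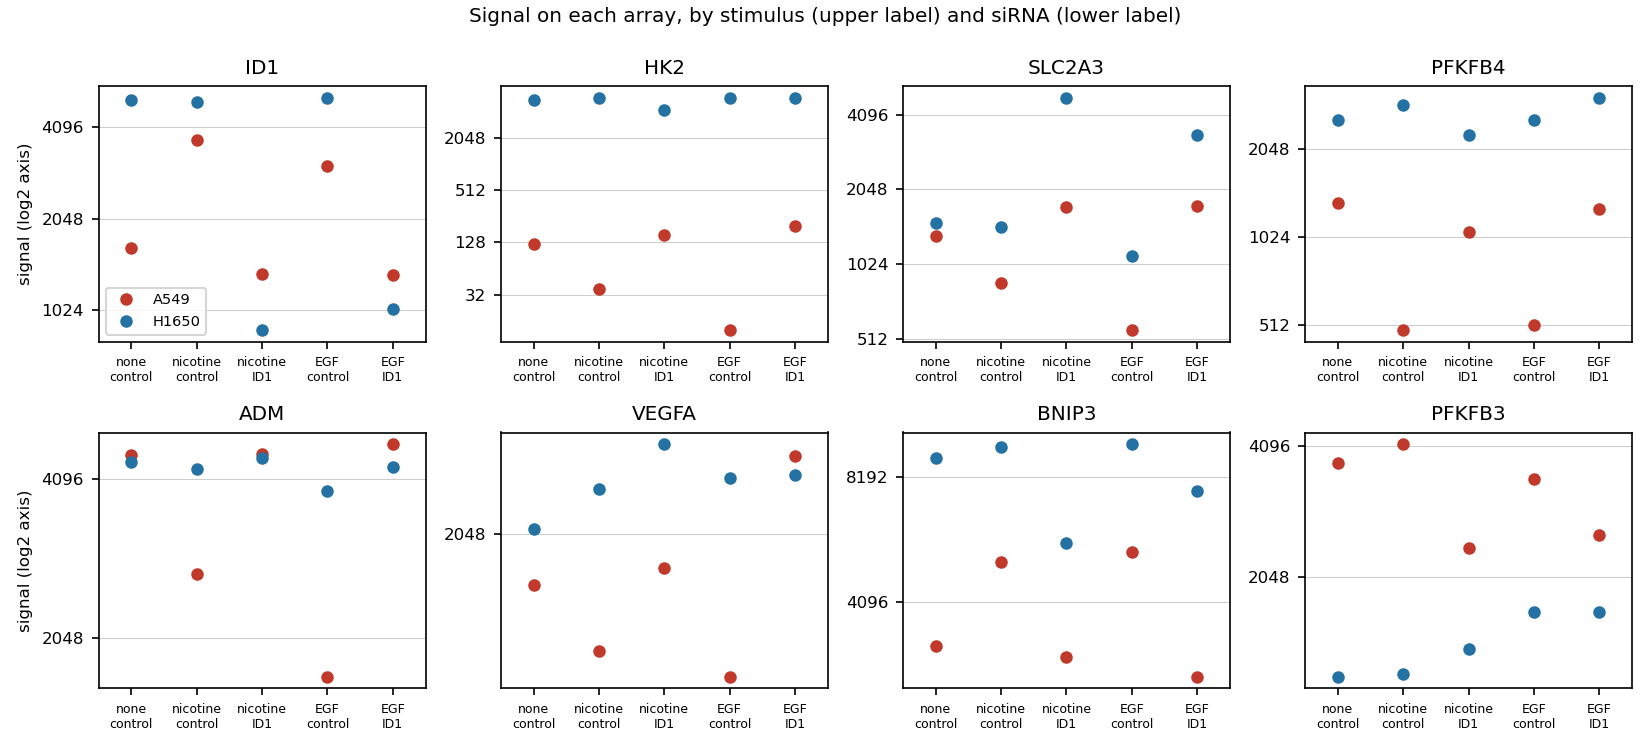
Signal of ID1 and of 7 genes on each array, on a log2 axis, by stimulus and siRNA; A549 is red and H1650 blue, with 1 array per point. In A549 the 2 ID1 siRNA arrays exceed both stimulated controls for HK2, SLC2A3, PFKFB4, ADM and VEGFA and lie below them for BNIP3 and PFKFB3, while in H1650 SLC2A3 rises and BNIP3 falls.

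The genes that fell in A549 were mostly enzymes of the pathway itself. GPI fell from 9513 to 6029.9 with nicotine and from 12291 to 6870.1 with EGF (log2 -0.75, SE 0.12, limma adjusted p = 0.00317). PFKP fell by 0.70, PKM by 0.67, LDHA by 0.60 and TPI1 by 0.50 on the log2 scale, each with SE between 0.13 and 0.17. LDHA, which makes lactate, read 28113 and 44872 in the controls and 21809 and 25263 with ID1 siRNA. PKM read 11073 and 16550.2 and then 7347 and 9864, but its second probe set changed by 0.01. ALDOA, GAPDH, PGK1, PGAM1 and LDHB did not pass the test, at log2 values of -0.43, -0.34, -0.39, -0.36 and -0.42.

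These falls were larger in the EGF pair, most unevenly for LDHA, TPI1 and PFKP. PKM was at -0.59 in the nicotine pair alone, against -0.67 over both pairs. The change of LDHA was -0.37 with nicotine and -0.83 with EGF, that of TPI1 -0.36 and -0.64, and that of PFKP -0.55 and -0.86. The control library with EGF is the one whose brightest signals stood apart, and the ACTB control probe set changed by -0.12 in the nicotine pair and -0.46 in the EGF pair. The hybridisation spike cre, which is added and not cellular, changed by 0.04 and -0.27, and the spike bioB by 0.58 and 0.74. Without that library 8 of the 13 calls remained, namely SLC2A3, HK2, PFKFB4 and ADM upward and GPI, PFKP, PFKFB3 and BNIP3 downward, and TPI1, PKM, LDHA, PDK3 and VEGFA were lost. LDHA and TPI1 were also lost without the A549 ID1 siRNA library with EGF or any 1 of the 4 stimulated H1650 libraries, which enter through the shared spread, and PKM without the former. After quantile normalization TPI1 was at -0.14 and PKM at -0.38, neither called, and GPI, PFKP and LDHA were called at -0.50, -0.41 and -0.27. What part array brightness has in the fall of these enzymes was not tested.

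**Figure D4:**
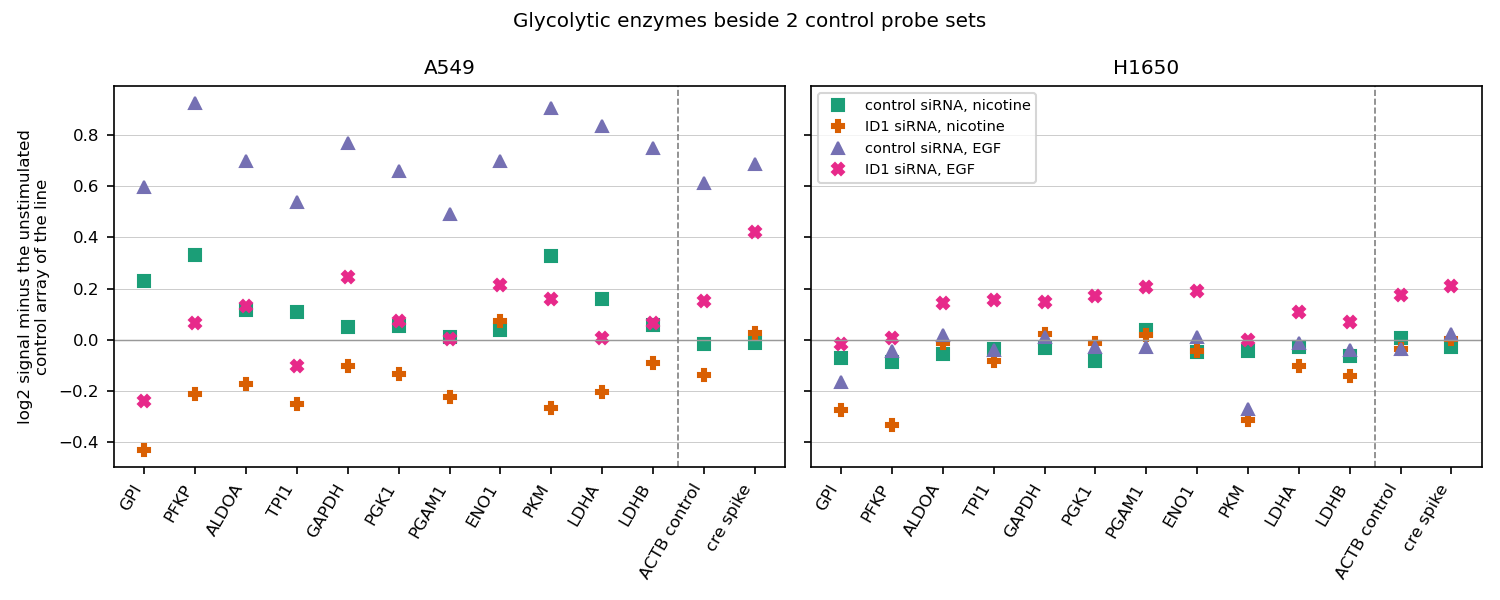
Log2 signal of 11 glycolytic enzymes, the ACTB control probe set and the cre spike on the stimulated arrays, minus the unstimulated control array of the same line; each point is 1 array. In A549 the EGF control array lies above the other arrays for every feature shown, ACTB at 0.61 and cre at 0.69, while in H1650 the points of each feature stay closer together.

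Regulators and BNIP3 also fell in A549. PFKFB3 fell from 4142 to 2379 with nicotine and from 3443 to 2554 with EGF (log2 -0.62, SE 0.12, limma adjusted p = 0.00634), as its relative PFKFB4 rose, and the call was lost without either nicotine array of A549. PDK3 fell from 901 to 439 and from 622 to 324 (log2 -0.99, SE 0.20), and its other probe sets gave -1.90, -1.20, -0.07 and -0.04. The PDK3 call was also lost without the nicotine control of A549. BNIP3 fell from 5108 to 3023 and from 5419 to 2706 (log2 -0.88, SE 0.13, limma adjusted p = 0.00177), and its second probe set gave -0.35 (limma adjusted p = 0.121, not called). The unstimulated control read 3212, again nearer to the ID1 siRNA libraries. The other 10 hypoxia genes lay between -0.19 for ERO1A and 0.29 for KDM3A and EGLN3 on the probe sets used, and none passed the test. The second EGLN3 probe set had the opposite sign at -0.71, and the other ERO1A probe sets gave -0.29 and -0.63.

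**Figure D5:**
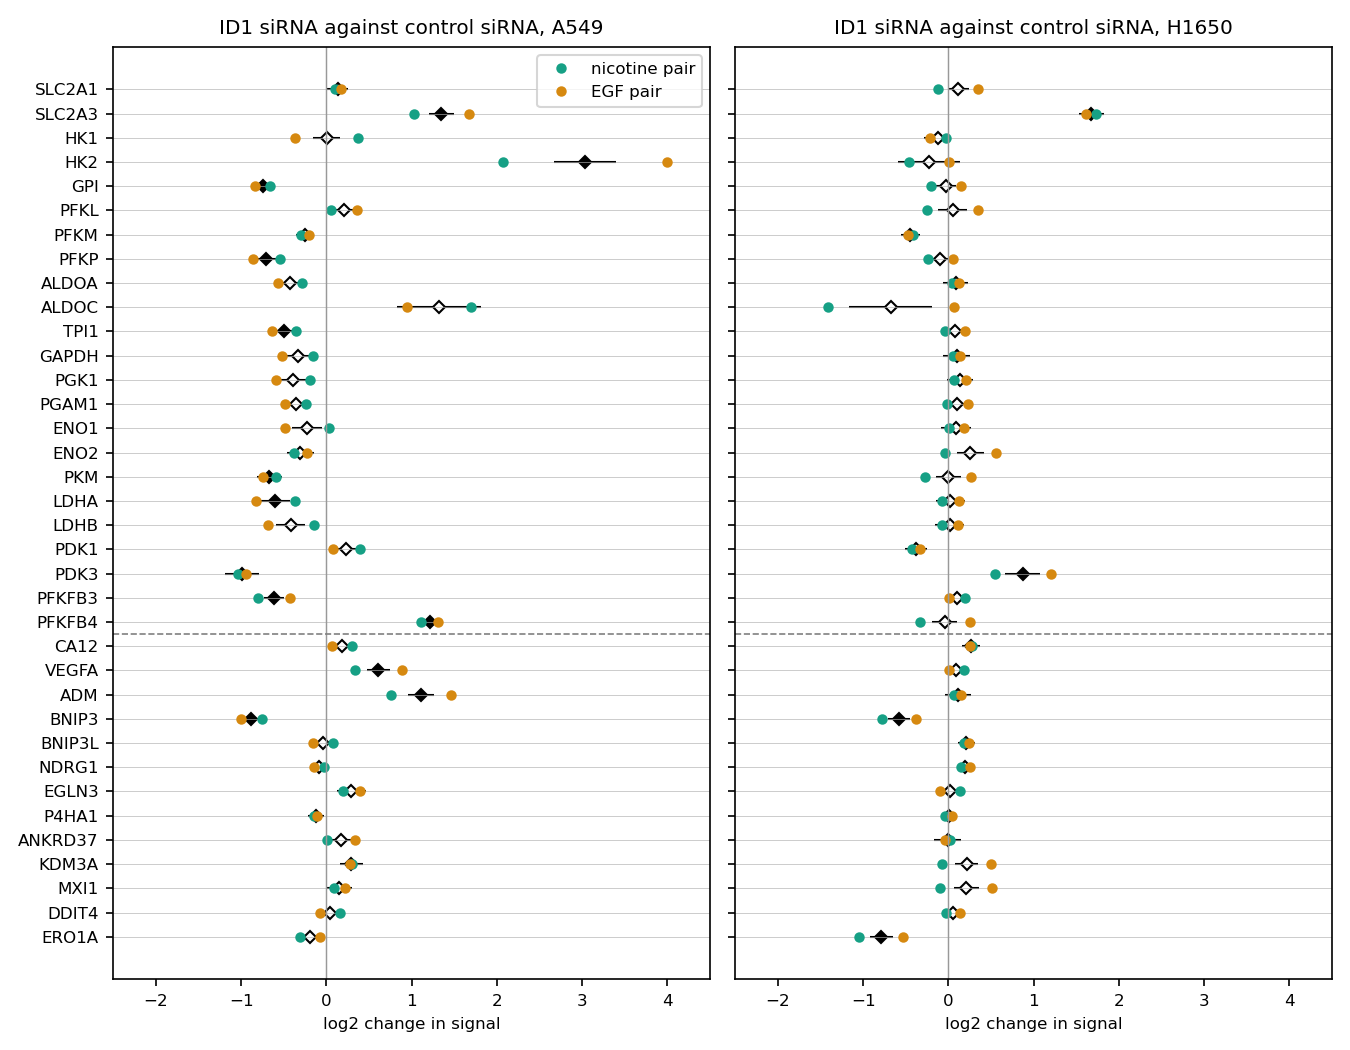
Log2 change with ID1 siRNA for each gene in A549 (left) and H1650 (right); green and orange points are the nicotine and EGF pairs, diamonds the limma estimate with its standard error, filled where the adjusted p is under 0.05. The dashed line separates glycolytic genes from other hypoxia genes, and 13 diamonds are filled in A549 and 5 in H1650.

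In H1650, ID1 siRNA changed 5 of the 36 genes. SLC2A3 and PDK3 rose and PFKM fell among the 23 glycolytic genes, and BNIP3 and ERO1A fell among the other 13. Among all genes tested 5.64% rose and 6.66% fell, so 2 and 1 of 23 are near the background. Without the intensity trend in the variance model 0 of the 5 were called. SLC2A3 rose from 1447 to 4811 with nicotine and from 1101 to 3383 with EGF, 3.20-fold (SE 0.15 in log2, limma adjusted p = 0.00092). Both ID1 siRNA libraries lay above all 3 controls, and the other SLC2A3 probe sets gave 0.59 and 1.21 on the log2 scale.

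ERO1A fell from 11705 to 5679.8 with nicotine and from 10079 to 6991 with EGF (log2 -0.79, SE 0.13, limma adjusted p = 0.00806). Its other probe sets gave -0.77 and -0.67, and the unstimulated control read 11360.5, with the other controls. BNIP3 fell from 9720.0 to 5673 and from 9853 to 7590.1 (log2 -0.58, SE 0.13, limma adjusted p = 0.021). Its second probe set gave -0.34 (limma adjusted p = 0.175, not called), and the BNIP3 call was lost for the mean of its probe sets. The ERO1A and BNIP3 calls were both lost without either nicotine array of H1650. PFKM read 1019 and 996 in the controls and 767 and 714 with ID1 siRNA (log2 -0.45, SE 0.11, limma adjusted p = 0.0307), and the call was lost without any 1 of the 4 stimulated H1650 arrays. PDK3 rose from 229 to 334 and from 145 to 333, but the call was lost without either EGF array of H1650, and 3 of its other probe sets gave values of the opposite sign, -0.04, -0.17 and -0.44.

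HK2 stayed between 4287 and 5981 in H1650, and its change with ID1 siRNA was -0.23 (SE 0.36, not called). The enzymes that fell in A549 did not pass the test here, with PKM at 7729 and 6610.4 in the controls and 6414 and 7964 with ID1 siRNA. ADM read 4288 and 3893 and then 4507 and 4320.4.

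The test of the difference between the lines in the ID1 siRNA effect called 6 of the 36 genes. HK2, PFKFB4 and ADM changed more upward in A549, and PDK3, PFKFB3 and GPI more downward. Among all genes 6.98% were called upward and 4.92% downward, against 2 and 3 of the 23 glycolytic genes and 1 and 0 of the other 13. None of the 6 was called without the intensity trend, and centring each array on its median gave 3 upward and 12 downward. The GPI call was lost without any 1 of the 4 EGF arrays, and the PFKFB3 call without any 1 of the 4 nicotine arrays. The log2 difference was 3.26 for HK2 (SE 0.51, limma adjusted p = 0.00576), a size that rests on A549 controls below their array medians, where the rise in A549 is bounded only as at least 2.80-fold. On both other HK2 probe sets the call of the difference was lost (limma adjusted p = 0.122 and 0.116). The PDK3 call was lost on each of its other probe sets, at -1.72, -1.64, -0.02 and 0.40. The log2 difference was 1.26 for PFKFB4 (SE 0.20). SLC2A3, which rose in both lines, differed by -0.33 (SE 0.21, limma adjusted p = 0.336), and BNIP3, which fell in both, by -0.30 (SE 0.18, limma adjusted p = 0.301). ERO1A, called in H1650, differed by 0.59 (SE 0.19, limma adjusted p = 0.0789), so its effect is not shown to differ between the lines. The same holds for LDHA, PKM, PFKP, TPI1 and VEGFA, with limma adjusted p from 0.0676 to 0.137.

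Nicotine and EGF by themselves changed none of the 36 genes in a way that passed the test. Against no stimulus with control siRNA, in a fit with both lines, 0 genes in each direction were called for nicotine and for EGF. That is 0% of 12514. The fit gives both lines the same response, so a response in 1 line alone widens its errors and was not tested. At an unadjusted p under 0.05 there were 189 genes for nicotine, 0 of them here, and 747 for EGF, 3 of them here. With nicotine the widest estimates were -0.82 for HK2 (SE 0.88) and 0.38 for ENO2, and -0.40 for ADM and 0.38 for BNIP3. With EGF they were -1.60 for HK2 (SE 0.88) and 0.44 for PFKP, and -0.79 for ADM (SE 0.30) and 0.43 for BNIP3. SLC2A3 (-0.86), ADM and MXI1 (-0.43) were the 3 genes under an unadjusted 0.05 for EGF.

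Within a line these are single arrays, so only values can be given. In A549, HK2 went from 124 without stimulus to 37.6 with nicotine and 12.5 with EGF, PFKFB4 from 1340.2 to 493 and 514, and ADM from 4567 to 2705 and 1729. With nicotine, the signals of 3 glycolytic genes (HK2, PFKFB4 and ALDOC) were at least 2-fold lower and 0 higher. HK2 and ALDOC ended below the median of their array, so a 2-fold difference is shown for PFKFB4 and not for these 2. With EGF, 3 glycolytic genes (HK2, PFKFB4 and SLC2A3) and 1 other hypoxia gene (ADM) were at least 2-fold lower in signal and 0 higher, HK2 again ending below its array's median. The shares of all genes past 2-fold in A549 were 3.44% lower and 1.65% higher with nicotine, and 5.11% lower and 1.64% higher with EGF. In H1650 0 of the 36 genes moved 2-fold with either stimulus, where all genes gave 0.575% lower and 1.04% higher with nicotine and 2.09% lower and 1.35% higher with EGF. These A549 differences rest on the unstimulated control whose ID1 signal was also low.

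EGF against nicotine, over both siRNAs within a line, called 0 of the 36 genes. Of all genes 0.0240% were called higher and 0.00799% lower in A549, and 0.0719% higher and 0.144% lower in H1650. The test of the difference between lines called 0.0639% of genes as more upward in A549 and 0.0160% as more downward, 0 of the 36 among them. At an unadjusted p under 0.05 there were 10 glycolytic and 0 other hypoxia genes of 1198 in A549, and 3 and 1 of 1341 in H1650. The difference gave 1 and 1 of 998. In A549 the estimates ran from -0.63 for HK2 to 0.99 for ALDOC among the glycolytic genes, and from -0.29 for ADM to 0.17 for VEGFA among the others. The nicotine control of ALDOC, at 33.8, was below its array's median, as were both controls of HK2, so the sizes for these genes are uncertain. With either ID1 siRNA array of A549 left out, so that the control pair alone is compared, GAPDH, LDHB, LDHA and ENO1 were called higher with EGF. HK2 was called lower, but it was below the array median on both control arrays, so no direction is drawn from it. That pair holds the EGF control library whose ACTB and cre signals were also higher, by 0.63 and 0.70. In H1650 CA12 was lower with EGF under both siRNAs, at 179 against 245 and 214 against 297 (log2 -0.47, SE 0.10, limma adjusted p = 0.119, not called).

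Genes of the same pathways outside the 36 were read from 3 further lists. Of 40 further genes of glycolysis, glycogen, lactate and pyruvate, 29 were tested. Between lines 11 were higher and 12 lower in A549, against 30.9% and 32.2% of all genes, and the median log2 difference was -0.17. PDK4, another pyruvate dehydrogenase kinase, read 3794 to 6305 in A549 and 8.19 to 36.7 in H1650. HKDC1, a hexokinase-like enzyme, read 1103 to 2429 and 62.5 to 122, the opposite order to HK2. The transporter SLC2A10 read 1517 to 2415 in H1650 and at most 4.90 in A549, which is near the bottom of the array's range. The pyruvate carrier subunit MPC1 was lower in A549 (log2 -2.29, SE 0.11).

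Of 18 genes for HIF subunits and oxygen sensing, 16 were tested, and 5 were higher and 8 lower in A549, against 30.9% and 32.2% of all genes. The 5 of 16 are at the background share. HIF1A was higher in A549 (log2 0.64, SE 0.12) and the second alpha subunit gene EPAS1 lower (log2 -1.17, SE 0.12). EGLN1, the main HIF prolyl hydroxylase, was higher (log2 1.35), and CITED2, which competes with HIF for its coactivators, lower (log2 -2.33). ARNT2 read 543 to 875 in A549 and 9.39 to 41.3 in H1650.

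Of 36 further hypoxia targets, 34 were tested, and 3 were higher and 21 lower in A549, against 30.9% and 32.2% of all genes. Their median log2 difference was -0.65. TMEM45A (log2 -3.36, SE 0.13), the lipase inhibitor ANGPTL4 (-2.24) and CCNG2 (-1.78) were lower. The collagen crosslinking oxidase LOX read 6.71 to 65.1 in A549 and 610.2 to 844 in H1650. The heme oxygenase HMOX1 (2.56), the lipid droplet protein HILPDA (1.33) and PNRC1 (0.92) were higher in A549.

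With ID1 siRNA in A549, 13 of these 34 targets rose and 8 fell, and in H1650 4 rose and 5 fell, where 13.8% and 11.4% of all genes rose and fell in A549 and 5.64% and 6.66% in H1650. STC2, a secreted glycoprotein, went from 397 to 1251 and from 418 to 1342 in A549 and from 916 to 2151 and 938 to 1764 in H1650. It rose by log2 1.67 (SE 0.12) and 1.07 (SE 0.12). VLDLR, a lipoprotein receptor, rose in A549 by 1.90 (SE 0.14), and HILPDA fell there by 1.16. KDELR3 and GPRC5A fell in H1650 by 1.04 and 1.00, and in A549 by 0.57 and 0.85. Of the 29 pathway genes 8 rose and 6 fell in A549 and 1 rose and 1 fell in H1650, and of the 16 oxygen sensing genes 1 rose and 2 fell in A549 and 0 rose and 1 fell in H1650. Against the same shares of all genes, the oxygen sensing counts in A549 and both lists' counts in H1650 are near or below the background. PDP1, the phosphatase that switches pyruvate dehydrogenase back on, rose in A549 by 1.11 (SE 0.13), and the glycogen branching enzyme GBE1 fell by 0.67.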

How the data were processed

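The values are intensities of Affymetrix U133 Plus 2.0 arrays, 1 signal per probe set, which the authors made with GCOS 1.4 and MAS5, per the submitters' processing notes. The deposited intensities are linear, although the labels mention a log2 step, so log2 was taken here. The 2% trimmed mean of each array is 500, which fixes overall brightness and leaves the shape of each array's distribution free.

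Of 54675 probe sets, 62 controls were left out, as were 1801 that carry several symbols and 11721 for which the annotation gives no gene. The other 41091 were named from GEO's platform annotation, with 41037 matched to current symbols by Entrez identifier. Each gene kept its probe set of highest mean log2 signal, and a gene was tested if its mean reached the median over all probe sets (signal 66.7). Of the 36 genes, 12 have 1 probe set. Tests used limma 3.58.1 (R 4.3.3) with an intensity trend and Benjamini-Hochberg adjustment over 12514 genes. Line and condition were fitted to 10 arrays, with 4 residual and 4.47 prior degrees of freedom. An ID1 siRNA term per line within matched pairs was fitted to the 8 stimulated arrays, with 2 residual and 6.64 prior ones. Prior degrees of freedom are drawn from the spread of all genes tested. In the siRNA fit they outweigh the gene's own. Both fits were run on simulated data with independent noise and no array-wide shifts, so the simulation cannot speak to such shifts. A probe set below its array's median in the lower group is given as an at least fold against that median. Promoters are from RefSeq, GRCh38.p14.

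The genes and lists were chosen with earlier results of these data known. Named with array values are genes called in a comparison or with the widest change of their group, and, of other lists, up to 5 called genes per direction. The number of arrays limits the precision.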

Additional observations from a re-analysis of the deposited data

Results flagged for a closer look

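For 6 genes the effect of ID1 siRNA differed between the lines by the test of the difference itself (A549 minus H1650, limma adjusted p over all genes tested, 2 pairs of arrays per line). HK2 differed by 3.26 on the log2 scale (SE 0.51, limma adjusted p = 0.00576), and the dim A549 controls make this size uncertain. PFKFB4 differed by 1.26 (SE 0.20, limma adjusted p = 0.00653), with rises of 1.11 and 1.31 in the A549 pairs and changes of -0.34 and 0.25 in the H1650 pairs. ADM differed by 1.00 (SE 0.22, limma adjusted p = 0.0211), higher in both A549 pairs. PDK3 differed by -1.86 (SE 0.29, limma adjusted p = 0.00531), falling in both A549 pairs and rising in both H1650 pairs on the probe set used. Its other probe sets gave -1.72, -1.64, -0.02 and 0.40, and none of them was called. PFKFB3 differed by -0.71 (SE 0.17, limma adjusted p = 0.0274) and GPI by -0.72 (SE 0.17, limma adjusted p = 0.0315), both lower in the A549 pairs.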

How the results depend on the processing

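Of 883 values of 49 gene-by-comparison results under other settings, 775 kept direction and call, 98 kept direction and lost the call and 10 reversed. The cause was not tested unless named. The count of genes called between the lines (25) moved by less than 1.5 times throughout, from 22 to 25 when arrays were left out.

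For ID1 siRNA in A549 (13 called, 5 up and 8 down), centring each array on its median gave 23 (4 up, 19 down), no intensity trend 7 (4 up, 3 down) and quantile normalization 12 (6 up, 6 down). Leaving out an array gave 8 to 18. In H1650 (5 called) no intensity trend gave 0, and leaving out an array 3 to 5. For the difference (6 called) centring gave 15 (3 up, 12 down), the mean of all probe sets 3 and no intensity trend 0, and leaving out an array 5 to 13. For EGF against nicotine in A549 (0 called) leaving out an array gave 0 to 5, and for the difference in that contrast (0 called) 0 to 1. Where this leaves a line with a single pair, that pair is assumed to vary like the pairs of the other line. Centring also moved the median of all genes tested from 0.05 to -0.23 for ID1 siRNA in A549, from 0.07 to -0.17 for the difference and from -0.03 to 0.12 between lines.

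Reversed values came from other probe sets of the same gene. Between lines, PKM gave -0.021 on its second probe set, PDK3 -1.76 and -0.84 on 2 others and -0.11 for the mean of its probe sets, and P4HA1 0.30 for the mean of its probe sets, one of which is below the filter. With ID1 siRNA, PKM gave 0.015 in A549, and PDK3 gave -0.044, -0.17 and -0.44 in H1650 and 0.40 for the difference. No paired analysis by replicate number was possible because the labels carry no replicate numbers, and pairs by line and stimulus are part of the fit. Near-background signals limit HK2 in A549 and ALDOC in both lines.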
